A study of Mus musculus with 12 samples.

Results

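The genes described here are 39 interferon-stimulated and antigen presentation genes, taken from a fixed list of symbols. The list was chosen with earlier results of these data known. They were found by gene symbol in the deposited table, where 36 of the 39 had a named probe set among 15780 named probe sets. Ifit3, Isg15 and Ifi44 had none and are not analysed here. Of the 36, 32 had a mean level over all arrays at or above 5.57 on the log2 scale and were tested. RNA of mouse primary hepatocytes was hybridised to 12 Affymetrix arrays, 1 sample each, in 4 groups of 3. The hepatocytes, the parenchymal cells of the liver, were isolated from male C57BL/6J mice aged 8 weeks that were wild type (WT) or lacked Cnot6l (KO). Cells of each preparation were divided into an input, from which total RNA was taken (WT Input and KO Input), and an immunoprecipitate made with an antibody against CNOT6L (WT IP and KO IP). The KO cells, which lack the antibody's target, were the negative control, and the sources used here do not say how the Cnot6l allele was made.

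CNOT6L is a catalytic subunit of CCR4-NOT, the main complex that removes poly(A) tails from mRNA. Type I interferons act through a receptor whose kinases activate STAT proteins, and STAT2 joins IRF9 in the complex ISGF3, which binds the interferon-stimulated response element (ISRE) in the promoters of antiviral genes. Interferon gamma acts on another promoter element, the gamma-activated site (GAS), and induces IRF1, the inducible GTPases and the genes of antigen presentation. In the latter, immunoproteasome subunits cut proteins into peptides, the TAP transporter carries the peptides into the endoplasmic reticulum, and tapasin loads them onto MHC class I molecules, which hold B2M as their light chain. Hepatocytes respond to both kinds of interferon and present peptides on MHC class I.

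The promoters of 4 members that the results turn on are shown first, because they carry these elements. Each is the 250 bases before a RefSeq transcription start of GRCm38.p6, written on the gene's own strand, with an ISRE core (GAAA, any 2 bases and GAAA, on either strand) and the GAS letters (TTCNNNGAA, the same on both strands) in capitals. Irf1 is at chr11:53769764-53770013 (+ strand), Ifit2 at chr19:34550444-34550693 (+ strand), Bst2 at chr8:71537473-71537722 (- strand) and Stat2 at chr10:128270248-128270497 (+ strand).
Irf1: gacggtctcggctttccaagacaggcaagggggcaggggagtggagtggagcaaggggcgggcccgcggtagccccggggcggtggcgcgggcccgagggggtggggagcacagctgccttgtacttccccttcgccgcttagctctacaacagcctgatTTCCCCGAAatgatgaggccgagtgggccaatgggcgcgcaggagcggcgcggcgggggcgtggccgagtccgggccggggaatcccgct
Ifit2: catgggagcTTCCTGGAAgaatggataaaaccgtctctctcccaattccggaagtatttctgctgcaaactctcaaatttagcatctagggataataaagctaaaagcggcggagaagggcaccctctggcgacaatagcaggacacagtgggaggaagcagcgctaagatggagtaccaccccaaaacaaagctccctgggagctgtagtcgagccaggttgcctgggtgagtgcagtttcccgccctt
Bst2: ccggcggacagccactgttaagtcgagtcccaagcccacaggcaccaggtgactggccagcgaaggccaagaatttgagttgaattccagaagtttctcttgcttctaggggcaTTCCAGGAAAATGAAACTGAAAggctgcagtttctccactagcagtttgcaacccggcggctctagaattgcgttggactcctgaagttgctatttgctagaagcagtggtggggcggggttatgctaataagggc
Stat2: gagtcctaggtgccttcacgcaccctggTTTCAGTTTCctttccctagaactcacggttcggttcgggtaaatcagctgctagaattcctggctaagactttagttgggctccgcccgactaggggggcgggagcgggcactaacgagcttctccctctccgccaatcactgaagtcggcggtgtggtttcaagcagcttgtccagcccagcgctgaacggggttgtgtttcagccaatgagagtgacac
The Irf1 window holds GAS letters from 90 to 82 bases before the start, and the Ifit2 window from 241 to 233. The Bst2 window holds overlapping ISRE cores, with their outermost letters 130 and 115 bases before the start, and GAS letters that overlap them. The Stat2 window holds an ISRE core 222 to 213 bases before the start, on the opposite strand. Irf1 and Ifit2 each have another start in the table, whose 250 bases hold neither motif. Of the 36 members, 28 had a promoter in the table. An ISRE core was present in 10 of the 28, against 3.46% of all 27025 genes with a promoter there, and GAS letters in 8, against 8.13%. A match is a description of letters, and no match says only that these letters are not in this window.

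The array medians lay between 6.31 and 6.45. The IPs differed from the inputs of the same preparation in measures that are not about these genes. The SD of an array was 0.17 to 0.35 lower in the IP over the 6 preparations, its 10th percentile 0.31 to 0.73 higher, and the difference of the Gapdh 3′ control probe set over the 5′ one was 0.85 to 1.95 larger. That of actin was 1.38 to 1.91 larger, and the mean of the poly-A control probe sets was 4.55 to 5.90 higher. The part of these differences in the results was not tested. The 1 probe set of Cnot6l read 8.44 to 9.51 in WT Input and 9.12 to 9.34 in KO Input, so the KO labels did not go with a lower Cnot6l signal. The sources used here do not place its probes against the deletion, and it checks nothing about the labels. Of the markers of hepatocytes all 9 in the table passed the filter, among them Alb at 14.48 to 14.88 as group means. Of 12 macrophage markers 2 did, Cd68 with group means of 10.61 to 11.89 and Csf1r with 5.59 to 6.07, and the Kupffer cell marker Clec4f had group means of 5.10 to 5.72. Of 10 lymphocyte markers 2 passed and of 7 dendritic cell markers 1. More passed for other cells of the liver: 5 of 10 sinusoidal endothelial, 4 of 8 stellate cell and 2 of 5 cholangiocyte markers. Of all 15780 named probe sets 9496 passed, so a pass is not itself a sign of a cell type. The mean of the macrophage markers ran from 4.84 to 5.33 in the inputs and from 5.15 to 5.59 in the IPs. In bulk RNA, fewer cells of a type and less RNA per cell cannot be told apart.

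**Figure D1:**
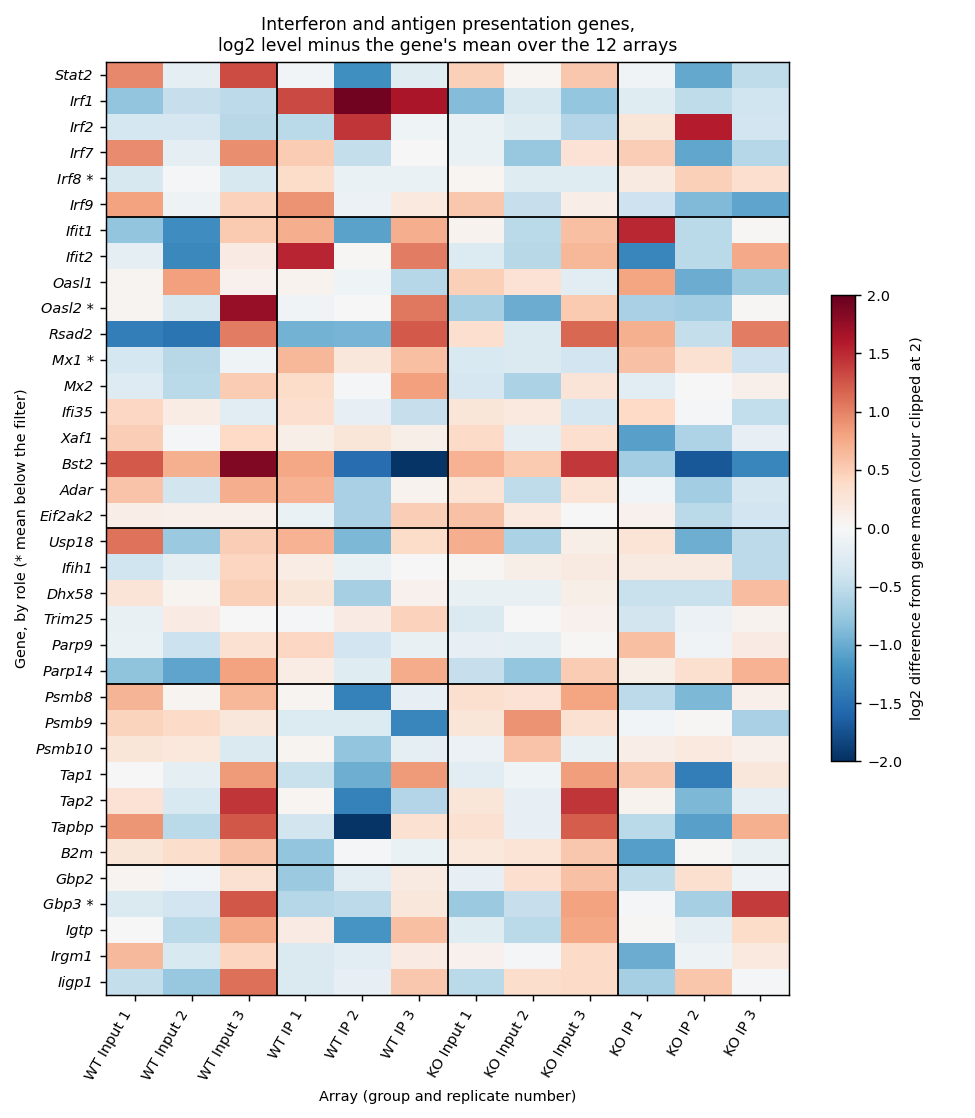
Log2 level of 36 genes (rows, by role) in the 12 arrays (columns, 3 per group), as the difference from the gene's own mean; colours are clipped at 2 and a star marks 4 genes below the filter. Irf1 is above its mean in the 3 WT IP arrays only, and Bst2 is below its mean in the 3 KO IP arrays and in WT IP replicates 2 and 3.

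Among the 32 members tested, 1 gene, Irf1, was called higher in WT IP than in WT Input and 0 were called lower, where 0.105% (all of them higher) of all 9496 genes tested were called. A call is an adjusted p under 0.05 from limma, over all genes tested. An IP and its input come from the same preparation, and with the preparation as a replicate block 6 members were called, 2 higher and 4 lower, where 7.02% of all genes were, 2.41% higher and 4.61% lower. The median difference of the 32 was -0.22, against -0.11 for all genes. At an unadjusted p under 0.05 without the block, 2 members were higher and 4 lower, where 435 and 573 of all 9496 genes were. In KO IP against KO Input limma called 0 members (0% of all genes). At the same level without the block, 0 members were higher and 5 lower, where 282 and 760 of all genes were. With the block 1 member was called, Stat2, lower (6.00% of all genes, 0.727% higher and 5.28% lower), and the median was -0.33 against -0.21. Quantile normalization moved the all-gene median of the KO comparison to -0.04 and that of the 32 members to -0.15. In both genotypes 19 of the 32 members had negative values, or 59.4%, as did 50.9% of all genes.

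Between the genotypes, 1 member (Irf1) was called higher in WT IP than in KO IP, where 0.253% of all genes were called. With the replicate number as block 2 were, Irf1 and Irf9, both higher (2.45% of all genes, 2.33% higher and 0.126% lower). In KO Input against WT Input limma called 0 members, without the block (0% of all genes) and with it (0%). Without the block 0 members had an unadjusted p under 0.05, where 3 of all 9496 genes were higher and 2 lower at that level. This count of 0 is thus near the background. With the block 2 members had an unadjusted p under 0.05, Rsad2 (0.0170) and Irf7 (0.0138). The counts of all genes at that level with the block are not given here. The interaction, which is the WT value of IP against input less the KO value, had 0 members called by limma without the block (0.0105% of all genes) and with it (0.0211%). An unadjusted p under 0.05 belonged to Irf1 alone without the block, where 174 of all 9496 genes were higher and 14 lower at that level. With the block it belonged to 3 members, Irf1 (0.000179), Ifit2 (0.00295) and Irf9 (0.0321). For the interaction too, all-gene counts at that level with the block are not given here. The 3 arrays of a group lay wholly above or below those of the other for few members. In WT IP against WT Input this held for 1 member above and 3 below (7.72% and 7.59% of all genes), and in KO IP against KO Input for 0 above and 5 below (5.31% and 10.1%). In KO Input against WT Input it held for 0 members (0.663% above and 0.958% below), and in WT IP against KO IP for 3 above, Irf1, Irf9 and Xaf1, and 1 below, Psmb10 (5.44% and 1.35%). All 3 same-number differences were positive for 5 members and negative for 13 in WT IP against WT Input (19.0% and 33.0% of all genes), and for 3 and 15 in KO IP against KO Input (12.8% and 35.3%). The counts were 2 and 8 in KO Input against WT Input (16.1% and 13.0%), 8 and 4 in WT IP against KO IP (20.1% and 14.2%), and 8 and 6 for the interaction (21.4% and 13.7%). These comparisons share arrays: the WT IP arrays enter 3 of them, so their values are not independent.

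**Figure D2:**
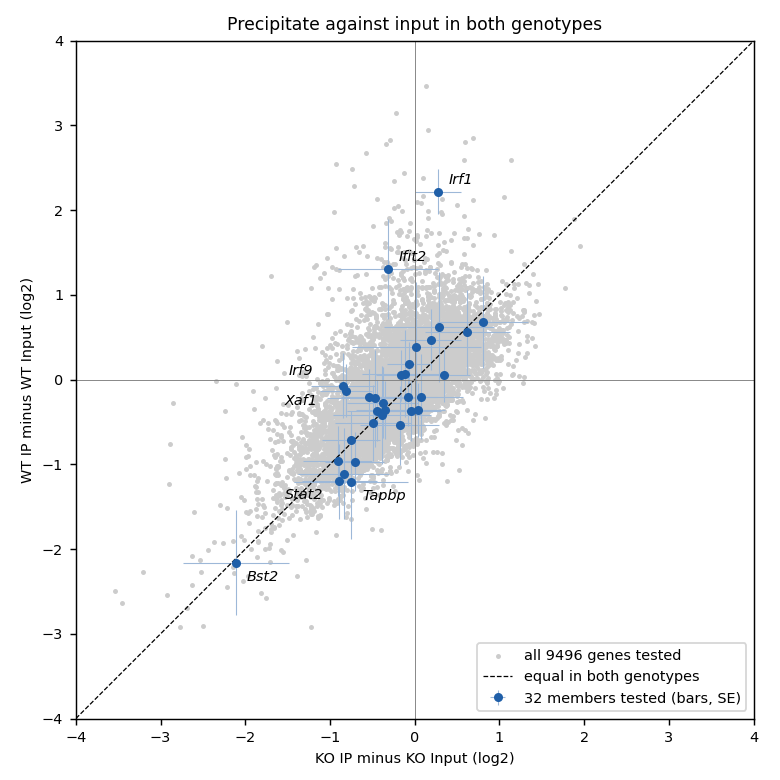
IP minus input difference (log2) of WT on the vertical axis against that of KO on the horizontal axis for 9496 genes tested (grey) and the 32 members (blue, bars are SE); the dashed line marks equal values. Most members lie near the line, while Irf1 (2.22 against 0.27) and Ifit2 (1.31 against -0.32) lie above it and Bst2 (-2.16 against -2.11) lies on it.

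The transcription factors held the only member called without the block. Irf1 encodes an early response activator of interferon and MHC class I genes. Its levels were 8.43, 8.77 and 8.71 in WT Input, 10.54, 11.16 and 10.86 in WT IP, 8.36, 8.90 and 8.45 in KO Input, and 8.99, 8.72 and 8.83 in KO IP. The 3 WT IP arrays lay above all 9 others. Irf1 rose from 8.64 ± 0.18 (SD, n = 3) in WT Input to 10.85 ± 0.31 (SD, n = 3) in WT IP, a log2 difference of 2.22 ± 0.27 (SE), or 4.65-fold, with an adjusted p of 0.00880 by limma (0.00546 with the block). In KO the difference was 0.27 ± 0.27 (95% interval -0.32 to 0.87, adjusted p = 0.763), with differences by replicate number of 0.63, -0.18 and 0.38. WT IP exceeded KO IP by 2.01 ± 0.27, or 4.02-fold, with an adjusted p of 0.0152 (0.00121 with the block). The inputs differed by -0.06 (95% interval -0.66 to 0.53).

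For the interaction, Irf1 had 1.94 ± 0.39 (SE), with same-number values of 1.49, 2.57 and 1.77, and did not pass (adjusted p = 0.365 by limma, 0.0942 with the preparation as block). It passed when the replicate number within each fraction was the block (adjusted p = 0.0461), a fit in which 0.358% of all genes were called higher. The call in WT IP against WT Input was lost without WT Input replicate 1 (adjusted p = 0.0830) or replicate 2 (0.0578), and with only the 6 arrays of the comparison in the fit (0.155). That of WT IP against KO IP was lost without WT IP replicate 2 (0.0867) or 3 (0.0531), without KO IP replicate 2 (0.0578) or 3 (0.0885), and with only its 6 arrays (0.402). Over all alternatives the difference stayed between 2.06 and 2.38 in the former and between 1.85 and 2.16 in the latter.

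Irf9 encodes the DNA-binding subunit of ISGF3. It read 8.61, 7.71 and 8.26 in WT Input, 8.70, 7.68 and 8.00 in WT IP, 8.34, 7.35 and 7.94 in KO Input, and 7.39, 6.92 and 6.75 in KO IP. All 3 KO IP arrays were below the 3 WT IP arrays, and KO IP replicate 1 was above the lowest KO Input array. WT IP was thus not higher than its input, with -0.07 ± 0.38 (95% interval -0.89 to 0.76), while KO IP minus KO Input was -0.85 ± 0.38 (adjusted p = 0.437 by limma, 0.0537 with the block). The WT IP minus KO IP difference of 1.10 ± 0.38 passed with the replicate number as block (adjusted p = 0.0171) and not without it (0.580). The interaction was 0.78 ± 0.53 (adjusted p = 1.0).

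Stat2, the partner of IRF9 in ISGF3, had 7.11, 5.96 and 7.45 in WT Input, 6.10, 4.93 and 5.91 in WT IP, 6.62, 6.19 and 6.69 in KO Input, and 6.08, 5.12 and 5.64 in KO IP. In each preparation the IP was below its input, and between KO IP and KO Input the groups did not overlap. The difference was -1.20 ± 0.44 in WT and -0.89 ± 0.44 in KO. Neither passed in limma without the block (adjusted p = 0.365 and 0.491), and both did with it (0.0232 and 0.0498). With quantile normalization as well, the WT value passed (0.0264) and the KO value did not. The interaction of -0.31 (95% interval -1.68 to 1.05) did not pass.

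The other tested factors were not called in any of the 5 comparisons. Irf2, which can repress the genes that IRF1 activates, had its highest levels in replicate 2 of both IPs, against 7.34 to 8.17 in the other 10 arrays. Irf7, the amplifier of type I interferon production, had 8.42, 7.30 and 8.40 in WT Input, 7.99, 7.0 and 7.48 in WT IP, 7.34, 6.72 and 7.76 in KO Input, and 7.96, 6.43 and 6.90 in KO IP. Between the inputs it was lower in KO in 3 of 3 same-number pairs, with a difference of -0.76 ± 0.47 (adjusted p = 1.0 by limma, -1.13 to -0.49 with 1 array left out), and the groups overlapped. Irf8, a factor of myeloid cells, was below the filter, with 4.96 to 5.77 over the 12 arrays.

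**Figure D3:**
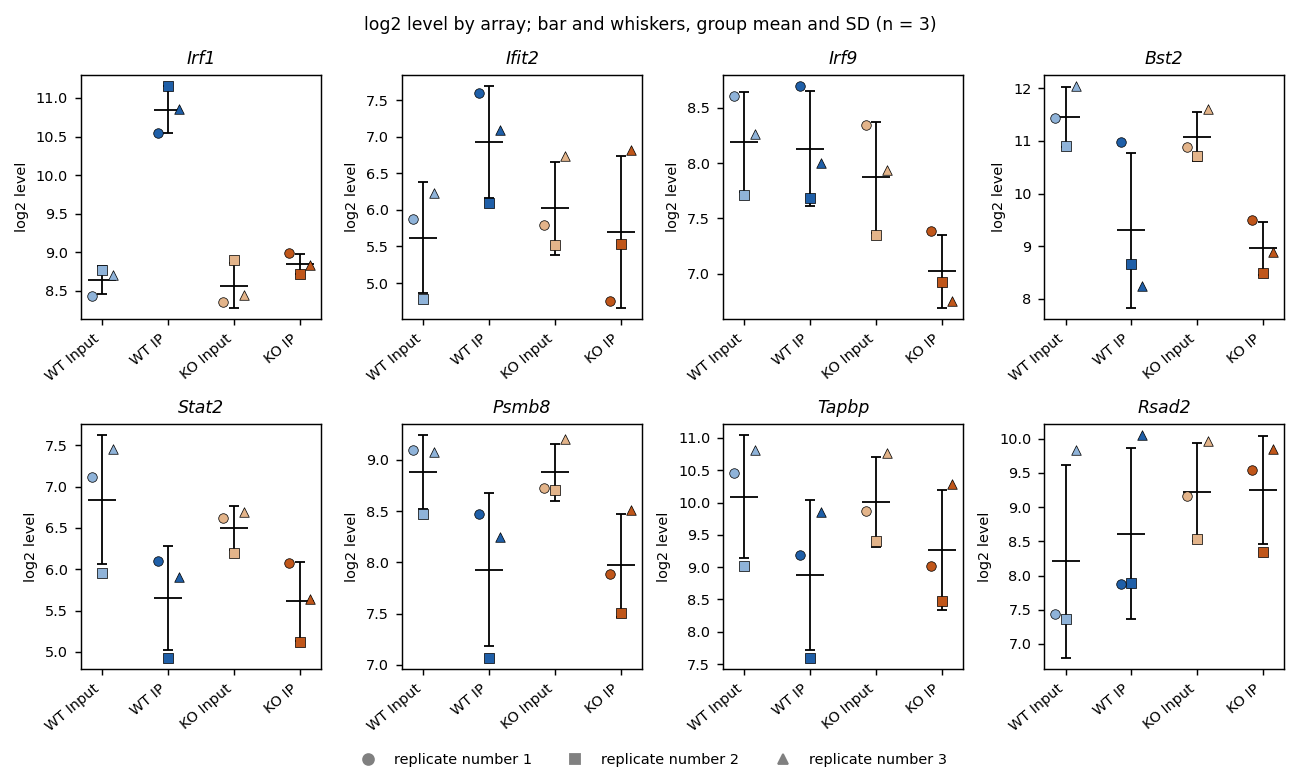
Log2 level in each of the 12 arrays for 8 members; symbols mark the replicate number, the bar is the group mean and the whiskers its SD (n = 3). Irf1 is high in WT IP (10.54 to 11.16), Irf9 is low in KO IP (6.75 to 7.39), and Bst2, Stat2, Psmb8 and Tapbp have lower means in both IPs than in their inputs.

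Among the antiviral effectors, 10 of 14 listed were tested, 1 was called with the block as higher and 1 as lower in WT IP against WT Input, and 0 were called in the other comparisons. Bst2 encodes tetherin, a membrane protein that holds budding virus at the cell surface. Its levels were 11.43, 10.91 and 12.05 in WT Input, 10.98, 8.67 and 8.24 in WT IP, 10.89, 10.72 and 11.61 in KO Input, and 9.50, 8.50 and 8.89 in KO IP. The KO IP arrays all lay below the KO Input arrays, whereas WT IP replicate 1 lay within the range of WT Input. The differences were -2.16 ± 0.62 in WT (adjusted p = 0.235 by limma, 0.0477 with the block) and -2.11 ± 0.62 in KO (0.277 and 0.0531). With quantile normalization and the block the WT call was lost (adjusted p = 0.0836). Without WT IP replicate 1 the WT difference was larger in size and passed without the block (adjusted p = 0.0237). The difference between the genotypes in this respect, the interaction, was -0.05 (95% interval -1.96 to 1.86).

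Ifit2 encodes a protein that binds viral RNA and blocks its translation. It read 5.87, 4.78 and 6.23 in WT Input, 7.60, 6.09 and 7.09 in WT IP, 5.80, 5.52 and 6.74 in KO Input, and 4.76, 5.53 and 6.82 in KO IP. The groups overlapped in each comparison. WT IP was above its own input in 3 of 3 preparations, by 1.73, 1.32 and 0.87, and the difference of 1.31 ± 0.59, or 2.47-fold, passed with the block (adjusted p = 0.0337) and not without it (0.463 by limma). The call was lost with quantile normalization and the block (0.0871). In KO the difference was -0.32 ± 0.59. The interaction was 1.62 ± 0.83, with same-number values of 2.77, 1.31 and 0.79 (adjusted p = 1.0, 0.254 with the block). Xaf1, a pro-apoptotic antagonist of XIAP, had non-overlapping groups in WT IP against KO IP (9.86 to 9.99 against 8.65 to 9.57), where 6.79% of all genes did not overlap, and a difference of 0.79 ± 0.31 that did not pass (adjusted p = 0.734, 0.163 with the block). WT IP was not higher than its input, with -0.13, while KO IP minus KO Input was -0.81 (adjusted p = 0.361 by limma, 0.0942 with the block).

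Between the inputs the largest values of tested members belonged to Rsad2, Irf7 and Ifit1, and none passed. Oasl2, below the filter and not tested, had -0.87. Rsad2 encodes viperin, an enzyme that makes a chain-terminating nucleotide. It had 7.44, 7.36 and 9.84 in WT Input, 7.88, 7.89 and 10.05 in WT IP, 9.16, 8.54 and 9.97 in KO Input, and 9.54, 8.35 and 9.85 in KO IP. The KO minus WT difference of the inputs was 1.01 ± 0.76 (95% interval -0.65 to 2.67, adjusted p = 1.0 by limma). It ran from 0.58 without WT Input replicate 2 to 1.82 without WT Input replicate 3. The KO Input array was higher in 3 of 3 same-number pairs, and the groups overlapped. Ifit1, which binds RNA with an unmethylated cap, had 5.81, 5.36 and 7.12 in WT Input, 7.32, 5.52 and 7.33 in WT IP, 6.66, 6.05 and 7.20 in KO Input, and 8.10, 6.06 and 6.62 in KO IP. Its inputs differed by 0.54 ± 0.65 (adjusted p = 1.0), from 0.17 without WT Input replicate 2 to 1.05 without WT Input replicate 3. Its IP minus input difference was 0.62 in WT and 0.29 in KO, and neither passed.

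The remaining tested effectors lay closer to 0. Oasl1, a relative of the oligoadenylate synthetases, had an IP minus input difference of -0.51 in WT and -0.49 in KO, and the antiviral GTPase gene Mx2 of 0.47 and 0.19. For Eif2ak2, which encodes the RNA-activated kinase PKR, the values were -0.21 and -0.54. The RNA editing enzyme gene Adar had -0.27 and -0.38, and Ifi35 had -0.21 and -0.08. None passed with or without the block. Mx1, which is disrupted in C57BL/6 mice, and Oasl2 were below the filter. Mx1 read 3.39 to 3.86 in WT Input, 4.17 to 4.61 in WT IP, 3.57 to 3.66 in KO Input and 3.54 to 4.54 in KO IP. Its IP minus input difference was 0.83 in WT and 0.49 in KO, not tested. These levels are near the 10th percentile of the arrays (3.42 to 4.26), which was itself higher in every IP than in its input. Oasl2 read 3.27 to 6.01 over the 12 arrays.

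In the ISG15 conjugation and RNA sensing group, 6 of 7 listed were tested and 0 were called by limma in any of the 5 comparisons, with or without the block. None of the 6 had an unadjusted p under 0.05 without the block, and with it Usp18 and Parp14 had in KO IP against KO Input and Usp18 in WT IP against KO IP. All-gene counts at that level with the block are not given here. Without it, 282 of all 9496 genes were higher and 760 lower in KO IP against KO Input. In WT IP against KO IP 454 were higher and 58 lower. Usp18, the protease that removes ISG15 and dampens interferon signalling, read 11.35, 9.51 and 10.75 in WT Input and 10.96, 9.36 and 10.62 in WT IP. Its IP minus input difference was -0.22 ± 0.57 in WT and -0.47 in KO. Ifih1 and Dhx58, which encode the RNA sensors MDA5 and LGP2, had 0.05 and -0.37 in WT and -0.16 and -0.04 in KO. Trim25, a ubiquitin ligase that activates RNA sensing, had 0.18 and -0.07. The ADP-ribosyltransferase family genes Parp9 and Parp14 had 0.05 and 0.56 in WT and 0.34 and 0.62 in KO.

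All 7 immunoproteasome and peptide loading genes were tested, and all of them had negative values in WT IP against WT Input, with a median of -0.96 against -0.11 for all genes. In KO 6 of 7 were negative, with a median of -0.75 against -0.21. Of all genes, 41.6% were positive in WT and 34.1% in KO. After quantile normalization the medians were -0.83 and -0.52. Of the 7, limma called 0 without the block in either genotype, and with it Psmb8 and Tapbp in WT and 0 in KO. At an unadjusted p under 0.05, 2 were lower in each genotype without the block and 5 with it. Without the block 573 of all 9496 genes were lower at that level in WT and 760 in KO. All-gene counts with the block are not given here, so the 5 has no background beside it. Psmb8, a catalytic subunit of the immunoproteasome, read 9.10, 8.47 and 9.08 in WT Input, 8.47, 7.07 and 8.25 in WT IP, 8.73, 8.71 and 9.20 in KO Input, and 7.89, 7.51 and 8.51 in KO IP. In both genotypes its IP arrays lay at or below the lowest input array. The differences were -0.96 ± 0.41 in WT (adjusted p = 0.428 by limma, 0.0419 with the block) and -0.91 ± 0.41 in KO (0.443 and 0.0517). With quantile normalization and the block the WT call was lost (0.0823), and without WT IP replicate 2 the WT value was -0.53.

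Tapbp encodes tapasin. Its levels were 10.45, 9.02 and 10.81 in WT Input, 9.19, 7.60 and 9.86 in WT IP, 9.87, 9.40 and 10.77 in KO Input, and 9.02, 8.47 and 10.28 in KO IP. The groups overlapped, while every IP was below its own input. The difference was -1.21 ± 0.67 in WT (adjusted p = 0.561, 0.0189 with the block) and -0.75 ± 0.67 in KO (0.736 and 0.0616). Without WT IP replicate 2 the WT value was -0.57. Psmb9, another catalytic subunit, had -0.97 in WT and -0.71 in KO, and the groups did not overlap in either genotype, as for 15.3% and 15.4% of all genes. B2m had -0.71 and -0.75, again without overlap, and Tap2 had -1.11 and -0.84. None of the 3 passed with or without the block. Tap1 had -0.42 and -0.39, and Psmb10 had -0.36 and 0.04. The RefSeq promoter windows of Psmb9 and Tap1, which are divergent neighbours on chromosome 17, overlap by 225 bases. For the interaction the 7 values lay between -0.46 (Tapbp) and 0.04 (B2m), and between the inputs they lay between -0.08 and 0.13. In both, 0 were called by limma and 0 had an unadjusted p under 0.05, with or without the block. At that level without the block, 3 of all 9496 genes were higher and 2 lower between the inputs. For the interaction 174 were higher and 14 lower.

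**Figure D4:**
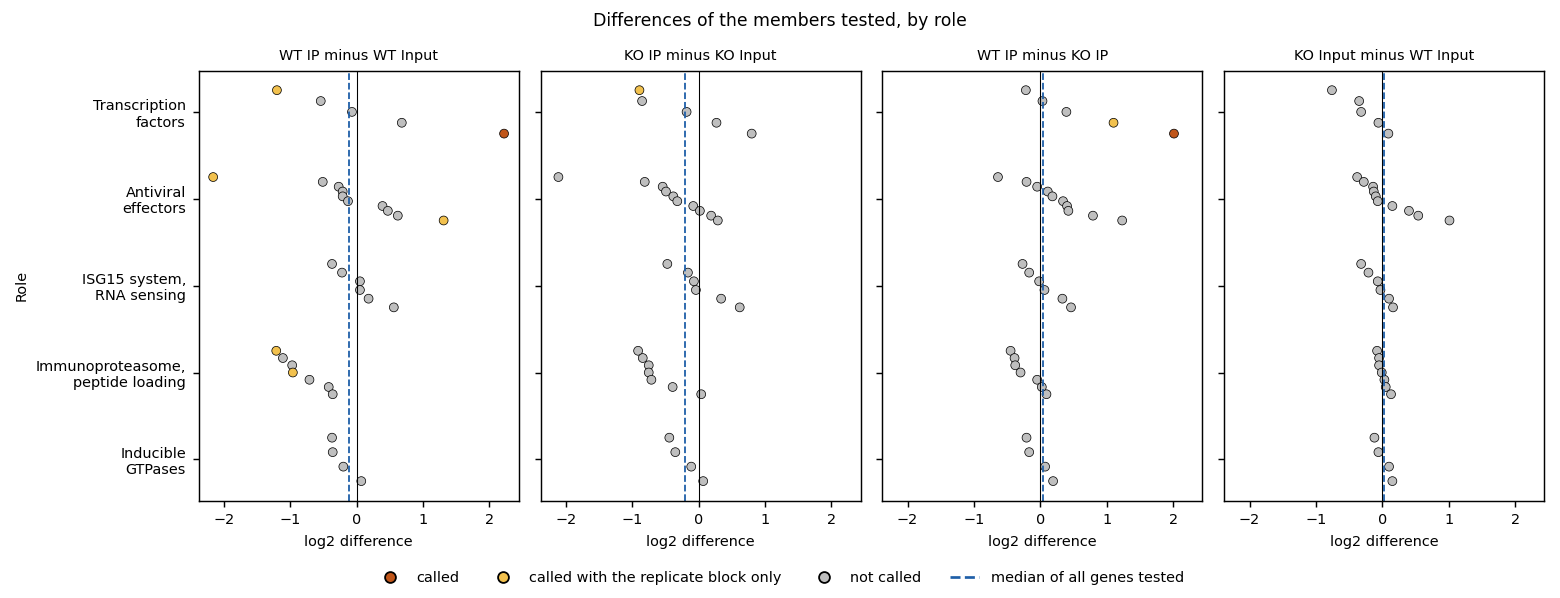
Log2 difference of each of the 32 members tested (points), by role, in 4 comparisons; colour marks calls without the block (orange) or only with it (yellow), and the dashed line is the median of all genes tested. The immunoproteasome and peptide loading genes lie to the left in both IP minus input panels (medians -0.96 and -0.75), and the KO Input minus WT Input panel holds no call.

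The inducible GTPases, which attack vacuoles that hold pathogens, had 4 of 5 members tested. None was called by limma in any of the 5 comparisons, with or without the block, and none had an unadjusted p under 0.05 in either fit. The counts of all 9496 genes at that level without the block are given above, such as 3 higher and 2 lower between the inputs. Irgm1 had an IP minus input difference of -0.37 in WT and -0.44 in KO, Gbp2 -0.36 and -0.35, Igtp -0.20 and 0.07, and Iigp1 0.07 and -0.11. Gbp3 was below the filter, with 4.24 to 6.39 over the 12 arrays.

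The members also varied with the replicate number, which the 4 groups share. This was tested with a moderated F-test over the 3 numbers, added after the values were seen, with the groups in the model. It called 18 of 32 members, where 59.0% of all genes were called, so the share was near the background. The number accounted for a median of 41.0% of a member's variance, against 47.5% over all genes, and the group for 29.6% against 24.1%. In the 6 IP arrays alone 4 members were called, or 12.5%, where 24.7% of all genes were. Usp18 had the smallest p among the members (adjusted p = 0.000299), with 9.29 to 9.63 in the 4 arrays of number 2 and 9.74 to 11.35 in the other 8. Tapbp and the GTPase gene Igtp were likewise lowest in number 2 and highest in number 3 in every group. Rsad2 was highest in number 3 in every group (9.84 to 10.05), whereas Ifi35 was highest in number 1 and lowest in number 3.

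Number 2 was the lowest of the 3 numbers in all 4 groups for 10 of the 32 members (Stat2, Irf7, Ifit1, Adar, Usp18, Parp9, Psmb8, Tap2, Tapbp and Igtp), and for 7.57% of all genes. Number 3 was the highest in all 4 groups for 5 members (Rsad2, Mx2, Parp14, Tapbp and Igtp), and for 15.0% of all genes. Number 1 was the lowest for 2 members and the highest for 3 (9.19% and 11.0% of all genes), number 3 the lowest for 1 (20.3%) and number 2 the highest for 0 (13.5%). Irf1 and Ifih1 showed no such order, and the number accounted for 1.71% and 0.263% of their variance. Some marker lists moved with the numbers too. The mean of 8 stellate cell markers was 6.13 to 6.25 in number 3 and at most 5.60 and 5.85 in numbers 1 and 2. The mean of 10 sinusoidal endothelial markers was 5.79 to 6.08 in number 3 and 5.26 to 5.80 in the others, and that of 9 hepatocyte markers 12.40 to 13.02 in number 2 and 11.79 to 12.53 in the others. The ranges of the immune cell lists overlapped between the numbers. In numbers 1, 2 and 3 the lymphocyte mean was 4.25 to 4.70, 4.07 to 4.50 and 4.11 to 4.68. That of dendritic cells was 4.59 to 5.16, 4.46 to 4.85 and 4.49 to 5.22. That of macrophages was 5.13 to 5.47, 4.84 to 5.25 and 5.14 to 5.59, and in the inputs alone it averaged 5.15, 4.89 and 5.23. Measures of the arrays moved with the numbers as well. The Gapdh 3′ minus 5′ difference was 1.93 and 2.34 in the number 3 IPs and 0.84 to 1.14 in the other IPs, and the mean of 12 poly-A control probe sets was 5.16 and 5.19 in the number 1 inputs and 8.42 to 8.72 in the other inputs. The part of these lists and measures in the variation of the members was not tested, and the sources used here do not say what a number stands for between the genotypes.

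**Figure D5:**
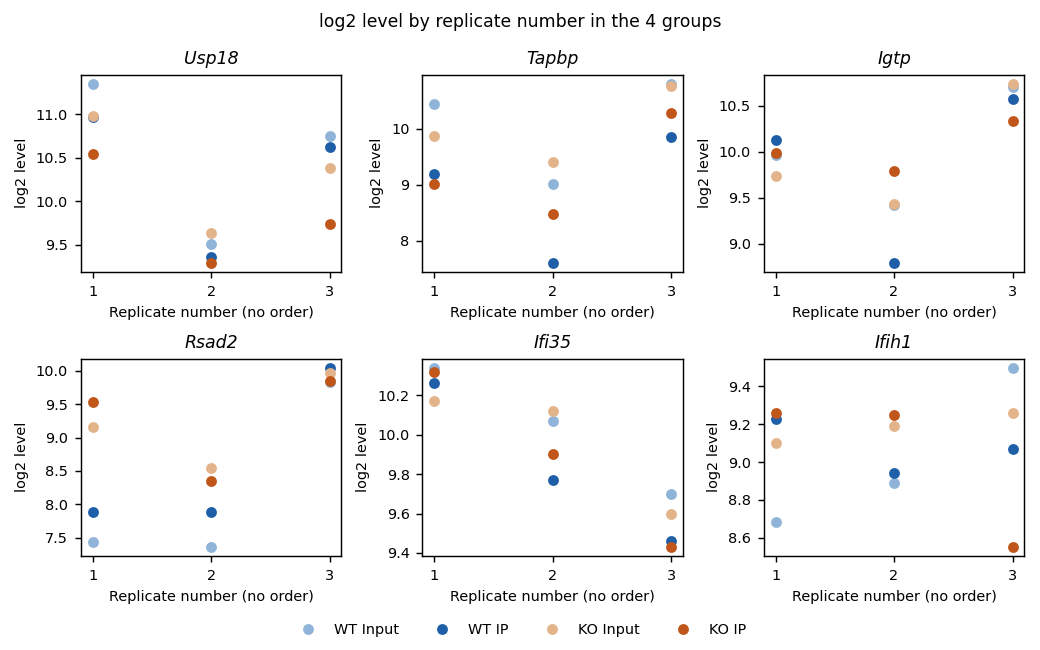
Log2 level of 6 members in the 3 replicate numbers (horizontal axis, without order), with a point for each of the 4 groups. Usp18, Tapbp and Igtp are lowest in number 2 in every group and Rsad2 is highest in number 3, while the number accounts for 0.263% of the variance of Ifih1.

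Other genes of the pathway came from 4 lists. All-gene counts at an unadjusted p under 0.05 with the block are not given here. The lists' counts at that level without the block are to be read beside those of all 9496 genes. In WT IP against WT Input 435 of all genes were higher and 573 lower, and in KO IP against KO Input 282 and 760. In WT IP against KO IP 454 were higher and 58 lower. Of 10 tested receptor and JAK-STAT genes limma called 0 in any comparison without the block, with 2 higher at an unadjusted p under 0.05 in WT IP against WT Input. With the block it called 1, Ifnlr1, the receptor chain specific to interferon lambda. Ifnlr1 had 5.77, 5.65 and 6.91 in WT Input, 7.14, 7.94 and 9.76 in WT IP, 5.80, 5.89 and 6.70 in KO Input, and 6.22, 5.87 and 6.59 in KO IP. The WT IP arrays lay above all 9 others. The WT difference was 2.17 ± 0.59, or 4.50-fold (adjusted p = 0.215 by limma, 0.0119 with the block), the KO difference 0.10 ± 0.59, and WT IP minus KO IP 2.05 ± 0.59 (0.332 and 0.0121). Its interaction of 2.07 ± 0.83 did not pass (adjusted p = 1.0, 0.169 with the block). Ifngr2, a chain of the interferon gamma receptor, had -0.92 in WT and -1.10 in KO, and neither passed. For the 10 genes 9 had a positive interaction, where 55.8% of all genes had, and 0 were called. The median was 0.32 against 0.05 for all genes, and 0.18 against -0.03 after quantile normalization.

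Of 10 tested nucleic acid sensing genes limma called 0 with or without the block. At an unadjusted p under 0.05 without the block, 1 was higher in WT IP against WT Input and 1 in WT IP against KO IP. With the block 2 were higher in each of these and 1 was higher for the interaction. With it 1 was also lower in WT IP against WT Input and 2 in KO IP against KO Input. The largest WT IP minus WT Input value was that of Tlr3, a sensor of double-stranded RNA (0.93), and in KO that of Mavs, the adaptor of RNA sensors (-0.75). Of 30 other interferon-stimulated genes limma called 0 without the block, with 3 lower at an unadjusted p under 0.05 in WT IP against WT Input. With it Cxcl10, a chemokine gene, was called higher in WT IP than in WT Input (0.91, adjusted p = 0.0419, 0.598 without the block), and Ifitm2, an inhibitor of viral entry, lower in KO IP than in KO Input (-1.04, 0.0398, 0.198 without it). Cxcl10 was at 7.39 ± 0.67 in WT Input, 8.30 ± 0.88 in WT IP, 8.69 ± 0.78 in KO Input and 8.59 ± 0.71 in KO IP (SD, n = 3). Its KO Input minus WT Input difference of 1.30 ± 0.56 (2.37, 1.17 and 0.38 by replicate number) did not pass, and WT IP minus KO IP was -0.30. Between the inputs 1 gene of this list was higher at an unadjusted p under 0.05 by limma without the block. Of all 9496 genes 3 were. With the block 1 gene was higher and 2 lower at that level, and these were Ifitm3, Cxcl9 and Cxcl10. Ube2l6, which carries ISG15 to its targets, had -1.32 in WT and -0.86 in KO, and the chemokine gene Cxcl9 had -1.07 in KO Input against WT Input, and none of these passed. Of 17 MHC and peptide loading genes beyond the members, 16 were negative and 1 positive in WT IP against WT Input (median -0.61). There 41.6% of all genes were positive (median -0.11). In KO 14 were negative and 3 positive (median -0.49), where 34.1% of all genes were positive (median -0.21). Without the block limma called 0. At an unadjusted p under 0.05 without the block, 4 were lower in WT and 3 in KO, where 573 and 760 of all 9496 genes were. With the block the class I heavy chain genes H2-K1 and H2-D1 were called lower in both genotypes. H2-K1 had -1.04 in WT (adjusted p = 0.0410) and -1.03 in KO (0.0462), and H2-D1 had -1.11 (0.0259) and -1.10 (0.0321). Class I heavy chains are near copies of each other, so the probe sets may share signal. The chaperone gene Pdia3 (-1.11, adjusted p = 0.0444) and the proteasome activator gene Psme2 (-1.20, 0.0462) were called lower in KO with the block, with -0.93 (0.0628) and -1.05 (0.0586) in WT. Cd74, the invariant chain of MHC class II, had the largest interaction of the list, -0.93, which did not pass (adjusted p = 1.0, 0.506 with the block).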

How the data were processed

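The data are the authors' deposited log2 values, 1 per probe set and array, as their range shows. Background correction, normalization and summarisation: not given in the sources used here. Per the labels' protocols, biotinylated cRNA was made from 10 micrograms of total RNA. Of 16539 probe sets, 15780 carried 1 gene symbol in the platform annotation. The filter kept the 9496 genes with a 12-array mean at or above 5.57, the 40th percentile of probe sets. Differences were fitted with limma 3.58.1 in R 4.3.3 on the values as deposited, as a model of 4 group means (8 residual degrees of freedom). Benjamini-Hochberg adjusted p-values run over all genes tested, with a threshold of 0.05. Tests are two-sided, and each SE comes from limma's moderated variance. Precision is limited by the 3 arrays a group.

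The replicate numbers pair the samples. The series text says that a preparation was divided into IP and input. Deviations from the group means correlated at 0.453 to 0.936 between arrays that share a number across groups (18 pairs), and at -0.711 to 0.0685 otherwise. Deviations in a group of 3 sum to 0, so the low values of the latter are partly set by the centring. On the deposited values, inputs of the 2 genotypes with the same number correlated at 0.983 to 0.990 (3 pairs). Inputs of 1 genotype with different numbers correlated at 0.862 to 0.957 (6 pairs). As replicate block served the preparation where IP and input were set against each other, the interaction included (4 degrees), and the number between genotypes (6). The titles call the replicates biological. Whether each is a separate animal is not otherwise stated, so the p-values measure the spread between these samples.

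The members, the role groups, the lists of other pathway genes and the alternatives were chosen with earlier results of these data known. All members in the table are named, and values in all arrays are given for those called with or without the block or among the 3 largest differences of a comparison. From the pathway lists, called genes and some of the 3 largest differences per comparison are named, chosen after their values were seen, as are the members named for their pattern over the numbers. No set test was run. Promoters were those of RefSeq (GRCm38.p6), and matched by Entrez identifier. The fits were tested on simulated data. Plots were made in matplotlib 3.10.9 under Python 3.11.15.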

Additional observations from a re-analysis of the deposited data

How the results depend on the processing

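Alternatives were run for the 18 differences of single members that were called or among the 3 largest of a comparison (that of Tapbp in WT included), and none of these 18 changed sign. With the replicate block the number of members called went from 1 to 6 in WT IP against WT Input (10 and 667 of all genes), from 0 to 1 in KO IP against KO Input (0 and 570) and from 1 to 2 in WT IP against KO IP (24 and 233). With quantile normalization as well, the counts were 3, 0 and 2. With only the groups compared in the fit they were 0 for WT IP against WT Input and 0 for WT IP against KO IP. With the replicate block by number within each fraction the interaction had 1 call, against 0. Leaving out 1 array gave 0 to 2 calls in WT IP against WT Input (0 without WT Input replicate 1 or 2, 2 without WT IP replicate 1), and 0 to 1 in WT IP against KO IP. The test over replicate numbers called 4 members in the IP arrays alone (24.7% of all genes), against 18 (59.0%), and 13 to 19 when 1 array was left out (47.6% to 58.6%). Quantile normalization, no filter, a filter at the 60th percentile and moderation with an intensity trend changed no count of members called by more than 1.5 times without the block. With 3 arrays a group, a difference as wide as that of Tapbp (-1.21, 95% interval -2.68 to 0.25) cannot be told from 0 without the block.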
